A study of Mus musculus with 4 samples.

Results

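Keratins are the intermediate filament proteins of epithelial cells, and the 47 keratin genes described here are the rows of the count table whose symbol is Krt followed by digits alone, out of 44788 gene rows. The set holds 4 simple keratins (Krt8, Krt18, Krt19 and Krt20), 3 others of simple or mixed epithelia (Krt7, Krt23 and Krt80), 17 squamous keratins, 21 hair and inner root sheath keratins, and Krt222 and Krt42, which are on none of these lists. Symbols that end in a letter, such as Krt6a and Krt6b, fall outside the rule and are given separately.

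RNA from colon tissue of C57BL/6 mice was sequenced in 4 libraries, 1 per group: WT mice without treatment, mice labelled Card9-/- without treatment, WT mice after AOM/DSS, and mice labelled Card9-/- after AOM/DSS. AOM/DSS is a model of colitis-associated tumours in which the carcinogen azoxymethane (AOM, 10 mg/kg, injected on day 1) is followed by dextran sulfate sodium (DSS), which damages the colon lining. DSS of 36 to 50 kDa was given at 2% in drinking water from 5 days later, in 3 cycles of 7 days each, with collection on day 100, whereas the untreated samples carry day 0, so treatment and collection day cannot be told apart. No age is given, nor whether a library holds 1 mouse or a pool. Where 4 values stand together without names, they follow this order: WT without treatment, the untreated library labelled knockout, WT after AOM/DSS, and the AOM/DSS library labelled knockout. The 4 pairs of libraries set AOM/DSS beside no treatment under each genotype label, and the knockout label beside WT under each treatment.

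Library totals ran from 23022885 to 27706567 counts. Card9 did not follow its label: in CPM (counts relative to the library's size, scaled by TMM), the untreated and AOM/DSS libraries labelled knockout had 3.18 and 7.73, above the WT libraries at 1.75 and 5.32. Each direction drawn from the label below therefore rests on the label alone, and these samples are called libraries labelled knockout. Tissue markers differed between the libraries. In the AOM/DSS library labelled knockout the summed level was 5586 CPM for 12 epithelial genes (8617 to 10401 CPM in the other 3 libraries), 294 CPM for 12 genes of mature colonocytes (5239 to 11538 CPM) and 1158 CPM for 6 smooth muscle genes (6096 to 8211 CPM). The 5 adipocyte genes summed to 222, 20.8, 77.7 and 9.88 CPM, highest in untreated WT. The colon factor Cdx2 was present in every library, at 16.9 CPM there and 143 to 279 CPM elsewhere. Hoxb13, a gene of the hindmost body segments, had 1 count in each WT library, against 7163 counts in the untreated and 3438 counts in the AOM/DSS library labelled knockout. No group has a replicate, so no p-value is given. Intervals are 95% and cover counting error only, and how far mice of a group differ was not measured.

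Type I and type II keratins assemble in pairs, so an epithelial cell needs a member of each type. Simple epithelia such as the colon lining use Krt8 as the type II partner of Krt18, Krt19 and Krt20, and Krt20 marks the mature cells near the surface. Stratified squamous epithelia instead use Krt5 with Krt14 in the basal layer, Krt4 with Krt13 above it in moist linings, Krt1 with Krt10 above it in skin, and Krt6a, Krt6b, Krt16 and Krt17 when the tissue is injured. In the RefSeq annotation of GRCm38, 24 of 25 type I keratins of the set lie on chromosome 11 and all 21 type II keratins on chromosome 15, with the type I gene Krt18 also on chromosome 15.

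Of the 47 keratins, 16 reached 50 counts in at least 1 library and 31 did not, among them 3 with 0 counts everywhere (Krt28, Krt74 and Krt82). Keratins as a whole took 0.845% of counts in untreated WT, 0.790% in the untreated library labelled knockout, 0.998% in WT AOM/DSS and 0.881% in the AOM/DSS library labelled knockout. The 4 simple keratins made up 96.9%, 97.7%, 97.3% and 87.4% of those keratin counts in the same order. The last library thus held the lowest simple share.

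A keratin was called higher or lower in a pair when the higher library had at least 50 counts and the log2 ratio, taken on the log2(CPM + 1) scale, reached 2-fold. After AOM/DSS in WT, 0 of 12 tested keratins were called higher, where 4.08% of all genes were, and 1 was called lower, where 3.88% of all genes were. After AOM/DSS in the libraries labelled knockout, 9 of 16 were higher (14.1% of all genes) and 0 lower (15.9%). Between the untreated libraries, 1 of 11 was higher with the knockout label (4.46% of all genes) and 0 lower (3.37%). Between the AOM/DSS libraries, 11 of 16 were higher with the label (11.9% of all genes) and 1 lower (12.4%). Krt5, Krt13, Krt14 and Krt36, 4 of the tested keratins, reached 50 counts in the AOM/DSS library labelled knockout alone. They could only be called higher there. The same held for Krt15 between the libraries labelled knockout (40 and 202 counts) and Krt84 between the AOM/DSS libraries (13 and 197 counts). In the WT pair Krt84 (78 and 13 counts) could only be called lower. These numbers of calls are read as a description.

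**Figure D1:**
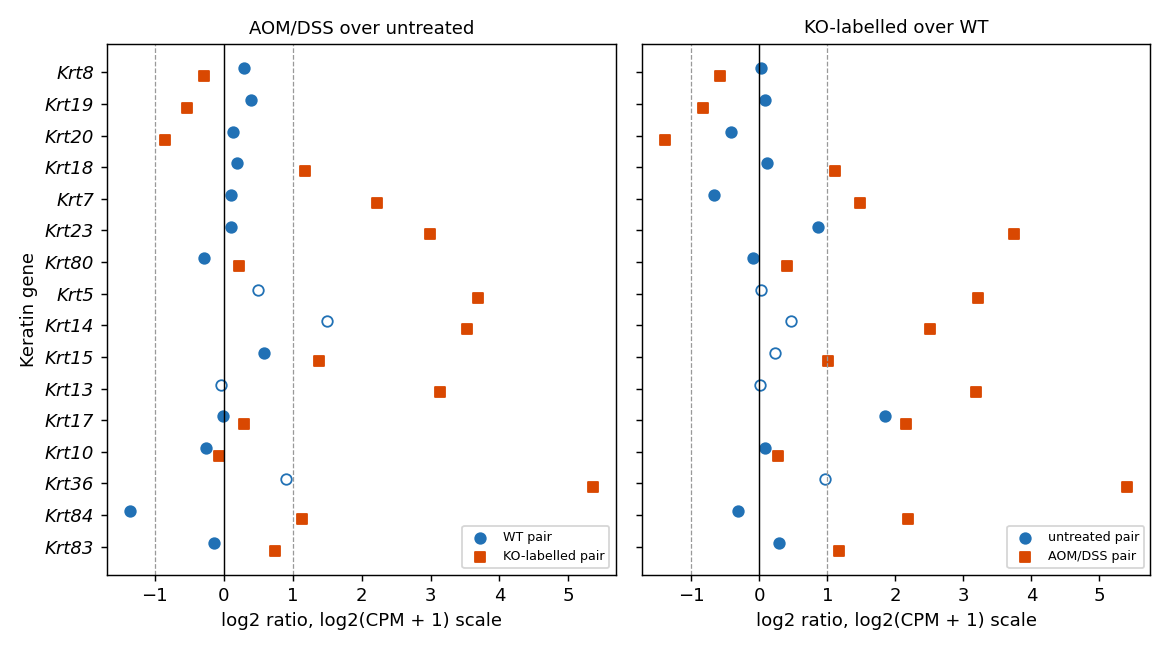
Log2 ratio of each of the 16 keratins with at least 50 counts in a library, on the log2(CPM + 1) scale, for AOM/DSS over untreated (left) and the knockout label over WT (right). Circles are the WT pair or the untreated pair, squares the pair labelled knockout or the AOM/DSS pair; open symbols have fewer than 50 counts in both libraries and dashed lines mark 2-fold. Krt36 lies at 5.35 and 5.41 in the pairs that hold the AOM/DSS library labelled knockout. Krt8, Krt19 and Krt20 lie below 0 there with this scaling. Scaled to epithelial genes, a scale that leans on the gene Lgals4, all but Krt20 in the label pair (-0.50) lie above 0.

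The simple keratins carried most of the keratin signal in every library. Krt8 (chromosome 15, 101996711 to 102004342), the common type II partner, stood at 4324 CPM in untreated WT, 4394 CPM in the untreated library labelled knockout, 5338 CPM in WT AOM/DSS, then 3602 CPM in the AOM/DSS library labelled knockout. Krt19 (chromosome 11, 100140810 to 100145926), a small type I keratin of crypt and surface cells, stood at 2613, 2789, 3449 and 1934 CPM in the same order. On this scale WT AOM/DSS was the highest library for both genes and the AOM/DSS library labelled knockout the lowest. Krt8 was 1.48-fold lower with the label after AOM/DSS (1.47 to 1.49) and Krt19 1.78-fold lower (1.76 to 1.80), neither past 2-fold and both reversed when libraries were scaled to epithelial genes. That scale leans on the gene Lgals4, as given below.

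Krt20 (chromosome 11, 99428385 to 99438153), the keratin of mature surface cells, had 1007 CPM in untreated WT, 759 CPM in the untreated library labelled knockout, 1106 CPM in WT AOM/DSS, then 420.2 CPM in the AOM/DSS library labelled knockout. It was the only keratin called lower in the AOM/DSS pair, at 2.63-fold (2.58 to 2.69), a call that ended under scaling to epithelial genes (log2 ratio -0.50 in place of -1.39), and its 1.81-fold difference (1.77 to 1.85) between the libraries labelled knockout stayed within 2-fold. All 12 genes on the list of mature colonocyte markers were at least 2-fold lower between those libraries (15.9% of all genes), 11 by library totals and 10 on the epithelial scale, with a median log2 ratio of -3.96, against -0.85 for Krt20. Car1, a carbonic anhydrase on that list, stood at 7654, 857, 5313 and 28.4 CPM in the same order. Between the untreated libraries the list went both ways, with a median log2 ratio of 0.08. With the label 5 of 12 were higher (4.46% of all genes), among them Aqp8, and 4 lower (3.37%), among them Car1. By library totals or on the epithelial scale these were 4 and 4. The part of these markers in the Krt20 difference was not tested.

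Krt18 (chromosome 15, 102028216 to 102032026), the classical type I partner of Krt8, was highest where Krt8 was lowest on the TMM scale, although Krt8 had the same sign as Krt18 when scaled to epithelial genes (0.61 and 0.33). Krt18 stood at 315 CPM in untreated WT, 343 CPM in the untreated library labelled knockout, 360.5 CPM in WT AOM/DSS, then 780.4 CPM in the AOM/DSS library labelled knockout. The first 3 libraries lay close together and the last was more than 2-fold above them. Krt18 was 2.28-fold higher than in the untreated library labelled knockout (2.22 to 2.34) and 2.16-fold higher than in WT AOM/DSS (2.11 to 2.22).

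The level of Krt18 relative to Krt8 within a library needs no scaling factor. Per kilobase of transcript, Krt18 stood at 0.0991 of Krt8 in untreated WT, 0.106 in the untreated library labelled knockout, 0.0920 in WT AOM/DSS and 0.295 in the AOM/DSS library labelled knockout. Krt19 per Krt8 was 0.751, 0.789, 0.803 and 0.667 in the same order. All type I keratins per all type II keratins nevertheless ran only from 1.05 to 1.08. Among keratin counts per kilobase, Krt18 took 13.1% in the AOM/DSS library labelled knockout against 4.31% to 5.07% elsewhere, while Krt20 took 5.25% against 8.37% to 11.2%. Krt8 itself took 44.3% there and 46.9% to 47.7% elsewhere.

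In bulk tissue, fewer epithelial cells and less RNA per epithelial cell cannot be told apart. The median log2 ratio of the 4 simple keratins was -0.41 after AOM/DSS in the libraries labelled knockout and -0.70 for the label after AOM/DSS, but with libraries scaled to their summed epithelial genes it turned to 0.49 and 0.19. The medians of all 16383 genes with at least 50 counts were 0.00 in both pairs, and under that scaling 0.83. The simple keratins' median was 0.25 after AOM/DSS in WT (all genes 0.02), which became -0.02 under that scaling, and 0.06 for the label in untreated libraries (all genes -0.01), which became -0.21. Krt8 changed sign under that scaling in the pairs with the AOM/DSS library labelled knockout (from -0.29 to 0.61 and from -0.57 to 0.33), as did Krt19 (from -0.53 to 0.37 and from -0.83 to 0.06) and, between the libraries labelled knockout, Krt20 (from -0.85 to 0.04). Krt8 was also at 0.01 between the libraries labelled knockout when scaled by library totals. Krt18 kept its direction in those pairs under every scaling tried. The lower levels of Krt8 and Krt19 are thus relative to the chosen scale, whereas Krt18 was higher on each. Lgals4 was the largest member of the epithelial sum and was itself 3.13-fold lower with the label after AOM/DSS. It gave 4467 of 10394 CPM in WT AOM/DSS and 1427 of 5586 CPM in the AOM/DSS library labelled knockout. The median log2 ratio of the 12 epithelial genes was -0.90 between the libraries labelled knockout and -0.64 for the label after AOM/DSS. The simple keratins' medians were -0.41 and -0.70, so only the first lay above that of the epithelial genes. Scaling without Lgals4 was not tried, so whether the changes of sign depend on it was not tested.

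**Figure D2:**
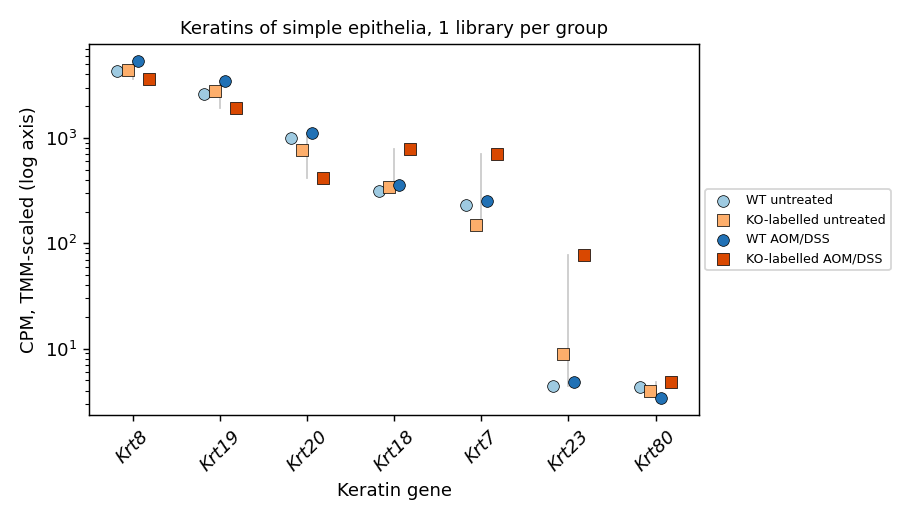
TMM-scaled CPM (log axis) of the 7 keratins of simple or mixed epithelia in the 4 libraries, 1 point per library, with circles for WT and squares for the knockout label; grey lines span the libraries of a gene, and levels are to be compared within a gene only. Krt18, Krt7 and Krt23 are highest in the AOM/DSS library labelled knockout, at 780.4, 698 and 77.4 CPM. Krt8, Krt19 and Krt20 are lowest there on this scale. Scaling to epithelial genes, which leans on the gene Lgals4, reverses this for Krt8 and Krt19.

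The stretches before the starts of Krt8, Krt18 and Krt20 are shown because these genes share a filament and yet differed unequally, so that the ratio of Krt18 to Krt8 was highest in the AOM/DSS library labelled knockout. They are the 250 bases upstream of the RefSeq start (GRCm38.p6), read in the direction of transcription: Krt8 from chr15:102004343-102004592 (minus strand), Krt18 from chr15:102027966-102028215 (plus strand) and Krt20 from chr11:99438154-99438403 (minus strand). Capitals mark matches on either strand to the string TATAAA of the TATA box, the string TGANTCA bound by AP-1, the GC box string GGGCGG, the string CTTTGA from the core of TCF/LEF sites, or the string AGATAA bound by GATA factors. In the same order, these strings occur in 12.4%, 6.75%, 32.7%, 13.8% and 9.99% of 32851 mouse promoter entries of that length.
Krt8: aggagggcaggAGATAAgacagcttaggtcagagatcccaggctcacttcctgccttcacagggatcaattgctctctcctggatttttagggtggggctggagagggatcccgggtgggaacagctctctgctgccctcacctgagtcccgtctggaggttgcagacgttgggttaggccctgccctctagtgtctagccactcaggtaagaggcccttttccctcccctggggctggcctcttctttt
Krt18: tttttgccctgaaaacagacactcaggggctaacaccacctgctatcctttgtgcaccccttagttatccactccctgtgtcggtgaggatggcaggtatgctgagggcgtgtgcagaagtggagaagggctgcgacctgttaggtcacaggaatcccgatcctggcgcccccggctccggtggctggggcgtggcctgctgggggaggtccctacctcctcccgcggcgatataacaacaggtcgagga
Krt20: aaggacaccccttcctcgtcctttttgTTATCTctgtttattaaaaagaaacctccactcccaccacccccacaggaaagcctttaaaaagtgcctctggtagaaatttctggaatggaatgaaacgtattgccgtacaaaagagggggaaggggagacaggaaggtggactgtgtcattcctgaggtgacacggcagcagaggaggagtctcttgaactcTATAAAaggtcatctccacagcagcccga

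The Krt20 stretch holds a TATAAA near its end and an AGATAA on the opposite strand, the Krt8 stretch an AGATAA, and the Krt18 stretch none of these strings. Entries exist for 11 of the 16 measured keratins, Krt13 having 2. Of the 12 stretches 3 hold the TATA box string, 2 that of AP-1 (both of Krt13), 1 the GC box, 0 the TCF/LEF core and 3 the GATA string. A match is a run of letters and not a measured binding site.

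Krt8 has a processed pseudogene, Krt8-ps on chromosome 7, with 98.618% identity over 941 bases. Its row held 37698, 38388, 37559 and 36757 counts, or 0.346, 0.402, 0.323 and 0.322 of the Krt8 count, so reads of Krt8 and its copy may have been divided between the rows. With both rows summed as Krt8, the simple median was -0.45 between the libraries labelled knockout and 0.09 between the untreated libraries. Among transcripts of the GENCODE M21 annotation, Krt18, Krt19, Krt20 and Krt7 had no other gene with at least 95% identity over 100 bases.

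Krt7, Krt23 and Krt80 belong to simple or mixed epithelia but lie outside the simple set of the rule. Krt7 (chromosome 15, 101412403 to 101427806), a type II keratin typical of ducts and urothelium, had 233 CPM in untreated WT, 148 CPM in the untreated library labelled knockout, 249.9 CPM in WT AOM/DSS, then 698 CPM in the AOM/DSS library labelled knockout. The last library was the highest and the untreated library with the same label the lowest. Krt7 was 4.73-fold higher after AOM/DSS in the libraries labelled knockout (4.56 to 4.91) and 1.07-fold higher in WT (1.03 to 1.11), the latter turning to a log2 ratio of -0.17 when scaled to epithelial genes. Its share of keratin counts per kilobase was 4.10% in the AOM/DSS library labelled knockout and 0.765% to 1.22% elsewhere.

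Krt23 (chromosome 11, 99477973 to 99493120), a type I keratin, stood at 4.44 CPM in untreated WT, 8.88 CPM in the untreated library labelled knockout, 4.86 CPM in WT AOM/DSS, then 77.4 CPM in the AOM/DSS library labelled knockout. It was 8.71-fold higher after AOM/DSS in the libraries labelled knockout (7.52 to 10.1), 1.09-fold higher in WT (0.831 to 1.44) and 15.9-fold higher with the label after AOM/DSS (13.1 to 19.5). In the untreated pair the 2.00-fold difference (1.58 to 2.55) did not reach 2-fold on the log2(CPM + 1) scale. Krt80, a type II keratin of mixed epithelia, stayed between 3.39 and 4.83 CPM. Its 4 folds ran from 1.08 to 1.42, and in 3 of the 4 pairs the interval included 1, though scaled to epithelial genes the label after AOM/DSS gave a log2 ratio of 1.15.

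Urothelial and mesothelial genes were read beside Krt7, since those linings also express it. The 5 urothelial genes summed to 75.8 to 91.0 CPM, most of it Foxa1, a factor that the gut also expresses, at 71.5, 74.5, 67.4 and 83.2 CPM. Gata3, a factor of urothelium and immune cells, was 3.92-fold higher with the label after AOM/DSS (2.29 to 7.14), from 0.734 to 2.87 CPM. Upk3a, a urothelial plaque protein, had 5, 0, 3 and 117 counts, Upk2 0, 0, 0 and 7, and Upk1a 170, 283, 163 and 32. The 7 mesothelial genes summed to 8.21, 3.22, 8.90 and 16.0 CPM, but did not move together. Msln, the mesothelial surface protein mesothelin, stood at 1.56 CPM in the untreated and 13.0 CPM in the AOM/DSS library labelled knockout, which was most of the sum there, while Upk3b and Wt1 had 8 and 3 counts in the latter. Muc16, a mesothelial mucin, stood at 4.21, 0.230, 3.94 and 0.347 CPM, 11.4-fold lower with the label after AOM/DSS (6.04 to 23.6), and Upk1b at 2.62, 0.967, 2.84 and 1.42 CPM. Their part in the Krt7 difference was not tested.

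The upstream stretch of Krt7 (chr15:101412153-101412402, plus strand, GRCm38.p6) is shown since it is the only one of the 12 with the GC box string, which it holds at 4 places.
Krt7: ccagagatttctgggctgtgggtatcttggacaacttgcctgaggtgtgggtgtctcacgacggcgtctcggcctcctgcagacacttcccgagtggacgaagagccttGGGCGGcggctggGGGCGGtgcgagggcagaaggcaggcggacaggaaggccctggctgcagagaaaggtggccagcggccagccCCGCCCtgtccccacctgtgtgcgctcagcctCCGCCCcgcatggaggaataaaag

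Squamous keratins were scarce in colon tissue and most abundant in the AOM/DSS library labelled knockout. Of the 17 members, 6 reached 50 counts in a library, namely Krt5, Krt10, Krt13, Krt14, Krt15 and Krt17. The 17 members together had 12.4 CPM in untreated WT, 25.8 CPM in the untreated library labelled knockout, 15.6 CPM in WT AOM/DSS, then 87.4 CPM in the AOM/DSS library labelled knockout. As a share of squamous plus simple keratin counts this was 0.150% (exact Clopper-Pearson interval 0.134 to 0.168), 0.311% (0.286 to 0.337), 0.152% (0.137 to 0.169) and 1.28% (1.23 to 1.33). The WT libraries did not differ in this share beyond counting error, and each library labelled knockout lay above its WT partner. Per kilobase of transcript the shares were 0.150%, 0.330%, 0.156% and 1.30%.

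**Figure D3:**
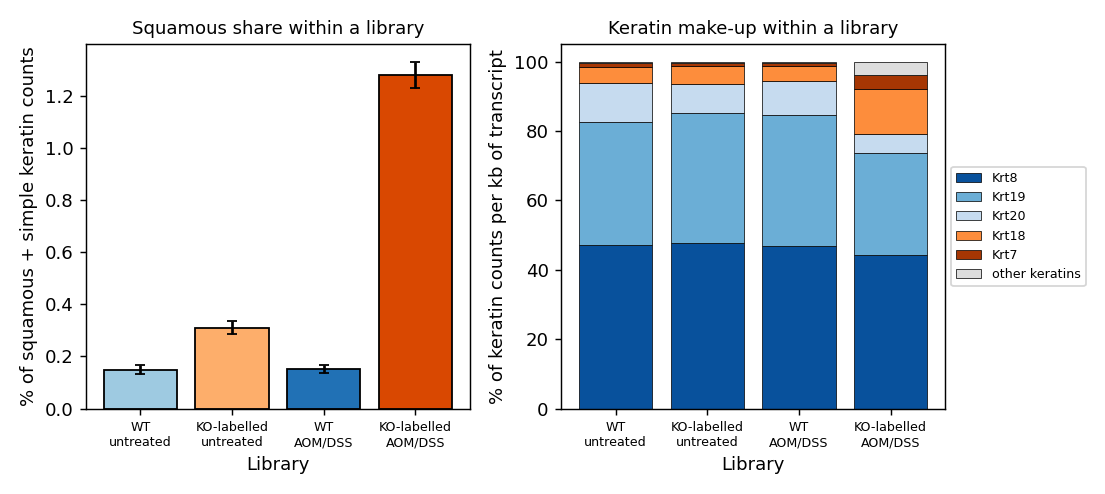
Left, squamous keratin counts as a percent of squamous plus simple keratin counts in each library, with exact 95% binomial intervals as bars for counting error. Right, the make-up of all keratin counts per kilobase of transcript, in percent, for Krt8, Krt19, Krt20, Krt18, Krt7 and all others. The AOM/DSS library labelled knockout has 1.28% squamous counts and the largest Krt18 share, at 13.1%.

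The 3 basal layer keratins were called higher in the AOM/DSS library labelled knockout in both of its pairs, Krt15 not under every setting. Krt5 (chromosome 15, 101707069 to 101712905), the type II basal keratin, had 4 counts in untreated WT, 4 in the untreated library labelled knockout, 14 in WT AOM/DSS and 453 in the AOM/DSS library labelled knockout. That last count is 14.3 CPM, 22.3-fold above WT AOM/DSS (13.1 to 41.1), while the other 3 libraries ran from 0.159 to 0.642 CPM. Krt14 (chromosome 11, 100203162 to 100207510), its type I partner, had 3, 12, 47 and 538 counts, which is 0.119, 0.552, 2.16 and 17.0 CPM. Krt14 was 30.7-fold higher after AOM/DSS in the libraries labelled knockout (17.5 to 59.9) and 18.1-fold higher in WT (5.83 to 90.9), where it stayed under 50 counts and was not called.

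Both partners thus had more counts after AOM/DSS under either label, with Krt5 4.05-fold higher in WT (1.27 to 16.9). Krt15 (chromosome 11, 100131759 to 100135949), a keratin of basal and hair bulge cells, stood at 1.43, 1.84, 2.66 and 6.38 CPM. It was 3.46-fold higher after AOM/DSS in the libraries labelled knockout (2.46 to 4.99) and 1.86-fold higher in WT (1.21 to 2.91), the former call being lost with a pseudocount of 5 CPM. For the label after AOM/DSS it was 2.40-fold higher (1.78 to 3.27), with a log2 ratio of 1.01 that no longer passed under upper-quartile factors or a pseudocount of 5 CPM.

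Krt13 (chromosome 11, 100117327 to 100121566), which pairs with Krt4 in moist linings such as the mouth, stood at 1.90, 1.93 and 1.83 CPM in untreated WT, the untreated library labelled knockout and WT AOM/DSS, and at 24.9 CPM in the AOM/DSS library labelled knockout. The first 3 libraries were alike within counting error and the last was 12.9-fold above its untreated partner (9.44 to 18.0). Krt4 itself had 2, 12, 6 and 49 counts, 1 short of the minimum in the same library. The other members of that layer, Krt24, Krt76 and Krt78, had 0 to 12 counts each.

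Krt17 (chromosome 11, 100256215 to 100261029), an injury and appendage keratin, differed with the label more than with the treatment. It stood at 3.61 CPM in untreated WT, 15.6 CPM in the untreated library labelled knockout, 3.58 CPM in WT AOM/DSS, reaching 19.5 CPM in the AOM/DSS library labelled knockout. Krt17 was the 1 of 11 tested keratins called in the untreated pair (4.46% of all genes were called higher), at 4.33-fold (3.43 to 5.53). After AOM/DSS the label difference was 5.45-fold (4.30 to 6.98), whereas AOM/DSS itself gave 1.24-fold (1.09 to 1.42) under the knockout label and 1.01-fold lower in WT (0.738 to 1.38). Scaled to epithelial genes, the log2 ratio of AOM/DSS under the knockout label was 1.15 in place of 0.30, past 2-fold. Hoxb13 was likewise high in both libraries labelled knockout, at 329.7 and 109 CPM against 0.0397 and 0.0459 CPM in WT, and Hoxa13, a related Hox gene, at 33.1 and 12.5 CPM against 1.31 and 0.688 CPM. Which stretch of colon each sample came from is not given. Its part in the Krt17 difference, as in every other difference with the label, was not tested. Krt16, the other injury keratin of the set, had 2 to 12 counts.

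Cornified layer keratins had few counts in every library. Krt10, the suprabasal type I keratin of skin, stood at 2.22, 2.44, 1.70 and 2.27 CPM, and each of its 4 intervals included 1. Its partner Krt1 had 1, 6, 1 and 4 counts, and Krt2, Krt9 and Krt77 had 0 to 4. Krt12 of the cornea had 34, 15, 43 and 13 counts and Krt79 of the hair canal 12 to 20. The squamous members called higher with the label after AOM/DSS were thus 3 basal keratins, Krt13 and Krt17, and Krt10, the 1 cornified layer keratin that could be tested, was not called.

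The median log2 ratio of the 6 measured squamous members was 2.26 after AOM/DSS in the libraries labelled knockout and 2.34 for the label after AOM/DSS, against 0.00 for all genes in both pairs. Members that passed the minimum only through that library had to differ, and over all 17 members the medians were 0.00 and 0.25. In WT after AOM/DSS the 6 had a median of 0.25 (all genes 0.02), and for the label in the untreated pair 0.16 (all genes -0.01).

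**Figure D4:**
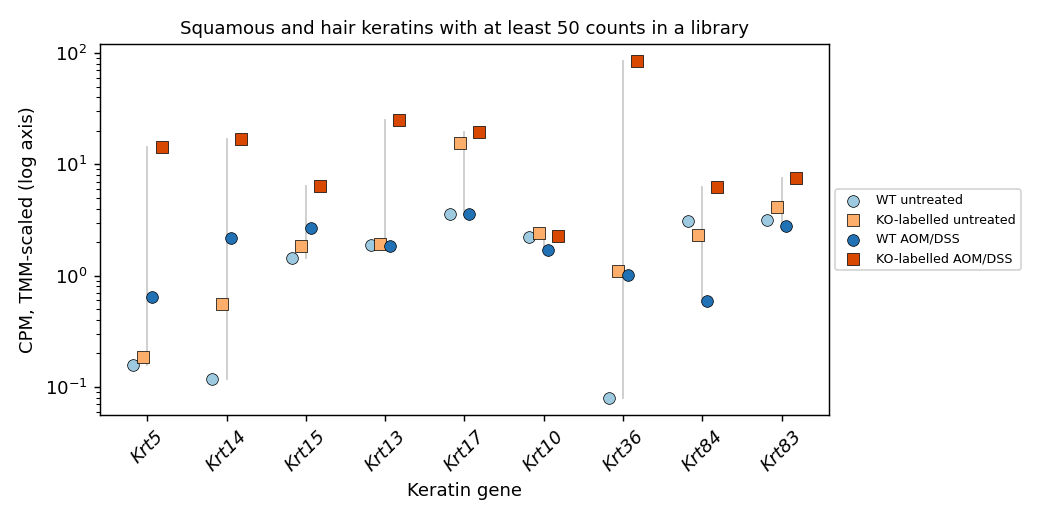
TMM-scaled CPM (log axis) of the squamous and hair keratins with at least 50 counts in a library, 1 point per library; grey lines span the libraries of a gene. Krt5, Krt14, Krt13 and Krt36 stand apart in the AOM/DSS library labelled knockout, from 14.3 to 84.6 CPM, while Krt17 is high in both libraries labelled knockout and Krt10 is level.

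Of the 21 hair and inner root sheath keratins, 18 stayed below 50 counts in every library, with 0 to 29 counts each. Krt36 (chromosome 11, 100102012 to 100109487), a type I keratin known from tongue papillae and nail bed, was the most abundant of the rest and had the largest log2 ratio of the 16 measured keratins on the log2(CPM + 1) scale. It had 2 counts in untreated WT, 24 in the untreated library labelled knockout, 22 in WT AOM/DSS and 2680 in the AOM/DSS library labelled knockout, which is 0.0793, 1.10, 1.01 and 84.6 CPM. It was 76.6-fold higher than in the untreated library with the same label (51.4 to 119.7) and 83.9-fold higher than in WT AOM/DSS (55.3 to 134). Per kilobase, at 50.6 CPM, it lay between Krt23 (49.5 CPM) and Krt7 (171 CPM) in that library and above Krt5 (6.51 CPM), Krt14 (10.0 CPM) and Krt13 (15.1 CPM). Krt35, another type I hair keratin nearby (100092192 to 100096224), had 0, 0, 0 and 29 counts.

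Krt84 (chromosome 15, 101525026 to 101532820), the type II keratin that accompanies Krt36 in tongue papillae, had 78, 50, 13 and 197 counts, or 3.09, 2.30, 0.596 and 6.22 CPM. WT AOM/DSS was thus the lowest library and the AOM/DSS library labelled knockout the highest. Krt84 was the only keratin called lower after AOM/DSS in WT, at 5.19-fold (2.87 to 10.2), and was 2.70-fold higher after AOM/DSS in the libraries labelled knockout (1.97 to 3.76). Both calls were lost with a pseudocount of 5 CPM or a minimum of 200 counts, which also ended the call with the label after AOM/DSS in the case of the minimum. The row named Krt83 stood at 3.17, 4.10, 2.80 and 7.54 CPM and was 2.70-fold higher with the label after AOM/DSS (2.03 to 3.63), a call lost with a pseudocount of 5 CPM. RefSeq lists Krt83 as an older name of Krt87, and the table carries 5430421N21Rik, an older name of the present Krt83, as a row of its own, so the row may be Krt87.

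Upstream stretches of Krt36 (chr11:100105627-100105876) and Krt13 (chr11:100121567-100121816), both on the minus strand of GRCm38.p6 and the former inside the gene's annotated span, are shown as those of the type I keratins with the most counts among the ones that reached 50 only in the AOM/DSS library labelled knockout. The Krt13 stretch holds the AP-1 string, in capitals, and the Krt36 stretch none of the strings searched. A second Krt13 entry (chr11:100120578-100120827), not shown, also holds the AP-1 string, at 2 places.
Krt36: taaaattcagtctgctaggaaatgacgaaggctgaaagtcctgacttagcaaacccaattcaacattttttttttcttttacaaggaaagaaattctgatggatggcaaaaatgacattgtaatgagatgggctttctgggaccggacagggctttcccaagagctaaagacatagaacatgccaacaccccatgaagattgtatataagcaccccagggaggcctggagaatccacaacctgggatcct
Krt13: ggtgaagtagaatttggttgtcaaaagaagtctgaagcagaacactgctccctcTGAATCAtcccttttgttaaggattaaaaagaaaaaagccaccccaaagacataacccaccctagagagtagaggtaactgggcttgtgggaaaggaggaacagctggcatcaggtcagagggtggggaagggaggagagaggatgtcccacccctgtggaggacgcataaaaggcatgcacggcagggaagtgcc

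Keratin genes whose names fall outside the rule were read in the same way. Krt6a, a type II injury keratin, had 0, 1, 2 and 507 counts and reached 16.0 CPM in the AOM/DSS library labelled knockout. Krt6b, whose sequence is 96.982% identical to a Krt6a transcript over 1193 bases so that reads can be divided between them, had 0, 0, 1 and 186 counts, at least 42.5-fold higher than in the untreated library labelled knockout with its 0 counts set to a floor of 3. The row 4732456N10Rik, an older name of the type II gene Krt90 (chromosome 15, 101552356 to 101562950), had 12, 11, 7 and 599 counts and was 37.3-fold higher after AOM/DSS in the libraries labelled knockout (20.7 to 75.2). Krt82, which lies between Krt84 and Krt90 on chromosome 15, had 0 counts everywhere.

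Stratified epithelium is also known by genes other than keratins, of which 26 were listed. Between the libraries labelled knockout, 7 of 13 tested genes passed 2-fold upward (14.1% of all genes) and 2 downward (15.9% of all genes, about the same share), against 9 and 1 when scaled to epithelial genes. In WT 3 of 10 passed upward (4.08% of all genes) and 1 downward (3.88%), against 2 and 1 on that scale. Dsg3, Dsc3, Col17a1 and Tgm1 fell below the count minimum in the untreated library labelled knockout. Between the libraries labelled knockout these genes could thus only be called higher. In the WT pair Tgm1 (15 and 134 counts) and Ly6d (39 and 154 counts) could likewise only be called higher. Fat2 (115 and 35 counts) could only be called lower there. The 7 of 13 and the calls in WT are read as a description. Tgm1, a transglutaminase that crosslinks the cell envelope, was 12.1-fold higher after AOM/DSS in the libraries labelled knockout (7.87 to 19.5) and 10.3-fold higher in WT (6.04 to 19.0). Dsg3, a desmosomal cadherin of squamous cells, had 0, 3, 0 and 112 counts, and Fat2, a giant cadherin, 115, 98, 35 and 877. Trp63, the factor that defines basal squamous cells, had 3, 1, 1 and 13 counts. Genes of the cornified envelope were uneven in the AOM/DSS library labelled knockout. Lor had 2 counts there, Ivl 8, and Krtdap, Sprr1b, Sprr3 and Cnfn 0 each, while Sprr1a, a small proline-rich envelope protein, had 120, 79, 231 and 472 counts and was 4.10-fold higher than in the untreated library with the same label (3.22 to 5.27).

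The summed level of that list was 868, 2805, 1002 and 619 CPM, lowest in the library with the most squamous keratin. Tgm3, another transglutaminase, made up much of the second value, at 1751 CPM in the untreated library labelled knockout against 1.07, 1.88 and 25.1 CPM in untreated WT, WT AOM/DSS and the AOM/DSS library labelled knockout. Sprr2a1, another small proline-rich envelope protein, also made by the gut, stood at 562, 684, 561 and 187 CPM. It was the largest member of the sum in every library but the untreated one labelled knockout. The order of the sums leans on it, and sums without it were not computed. How much squamous tissue each sample held was not tested.

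Keratin filaments are anchored by desmosomes and plakins, and 13 genes for such partners were listed. All 13 stayed within 2-fold after AOM/DSS in WT and for the label under either treatment, though scaled to epithelial genes Ppl reached a log2 ratio of 1.51 for the label after AOM/DSS. Between the libraries labelled knockout, 1 was higher and 2 were lower, near the shares of all genes (14.1% and 15.9%), but 1 and 0 when scaled by library totals and 3 and 0 when scaled to epithelial genes. Ppl, which encodes periplakin, was 2.98-fold higher (2.70 to 3.29), while Plec, which encodes the linker plectin, was 2.21-fold lower (2.16 to 2.26) and Evpl, for envoplakin, 2.17-fold lower (2.03 to 2.32). On the epithelial scale their log2 ratios were 2.41 for Ppl, -0.25 for Plec and -0.22 for Evpl. Dsp, for desmoplakin, stood at 803, 979.9, 1077 and 632 CPM, highest in WT AOM/DSS and lowest in the AOM/DSS library labelled knockout like Krt8. As for Krt8, its log2 ratios had the other sign on the epithelial scale, at 0.26 between the libraries labelled knockout and 0.13 for the label after AOM/DSS.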

How the data were processed

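Colon RNA of 4 groups, 1 library each, was analysed from raw read counts per gene symbol, which the authors deposited as whole numbers without normalization. Per the labels' protocols, RNA was extracted with TRIzol and libraries were made with an Ion Proton RNA-seq kit. The submitters' processing notes name GRCm38 (mm10), the build of the RefSeq and GENCODE M21 annotations used here for positions, transcript lengths and upstream sequences. The aligner, the counter and any strand setting were not given in the sources used here. Exons of Krt5, Krt7, Krt8, Krt10 and Krt80 overlap genes on the opposite strand in GENCODE, from which unstranded reads could not be told apart.

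CPM came from TMM factors computed in edgeR 4.0.16 under R 4.3.3, which were 0.9915, 0.9311, 0.9473 and 1.1434 in the order of libraries used above. A pair was read for a gene where either library had 50 counts or more, and called at 2-fold on log2(CPM + 1), where the pseudocount shrinks the ratios of scarce genes. Folds in the text leave the pseudocount out and carry exact 95% intervals conditional on the summed count. Without molecular identifiers, PCR copies count as separate reads, so intervals and floors cover counting error only. No p-value was computed, for want of replicates, and an additive fit, whose only residual degree of freedom is the interaction, was not run. Fold and interval code was tested on simulated data. Other scalings, pseudocounts, count minimums and equal depth were tried as alternatives. Near copies were sought with BLAST 2.17.0.

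The members, lists and rules were chosen with earlier results of these data known. Named were all keratins with at least 50 counts in a library, Krt6a, Krt6b, Card9 and up to 4 members of other lists with the largest ratios. Krt8-ps, 4732456N10Rik, Krt4, Krt35, other members and list genes below the minimum and the markers set beside Krt7, Krt17 and Krt20 were picked after their values were seen, as were the sequence strings searched. The table has 0 columns of other samples.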

Additional observations from a re-analysis of the deposited data

Results flagged for a closer look

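Krt84 went opposite ways after AOM/DSS under the genotype labels. Its log2 ratio was -1.36 in the WT pair, from 78 to 13 counts, and 1.13 in the pair labelled knockout, from 50 to 197 counts. The responses thus differed by 2.49 on the log2 scale. This difference was not tested, since each arm is 1 library, and both calls ended with a pseudocount of 5 CPM or a minimum of 200 counts.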

How the results depend on the processing

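Ratios of the 16 measured keratins were recomputed under the scaling and depth alternatives: of 384 values 292 stayed within the counting interval and 92 left it, and 0 keratins past 2-fold changed sign, although uncalled ones did, among them Krt8 and Krt19 as given above. Of the recomputed call counts 75 stayed within 1.5-fold of the reported ones and 5 did not: the lower call of WT AOM/DSS (Krt84) went to 0 with a pseudocount of 5 CPM or a minimum of 200 counts, Krt14 made 1 higher call there without a minimum, and the lower calls of the label after AOM/DSS went from 1 to 0 under scaling to epithelial genes and to 3 without a minimum. The median of the simple keratins moved beyond counting error with the scaling. After AOM/DSS in WT it was 0.18 by library totals and -0.02 by epithelial genes. Between the libraries labelled knockout it was -0.34 (DESeq2 size factors), -0.46 (upper quartile), -0.11 (totals), 0.49 (epithelial genes) and -0.45 with Krt8-ps added. For the label in untreated libraries these were 0.02, 0.04, -0.03, -0.21 and 0.09, and after AOM/DSS -0.65, -0.76, -0.43 and 0.19. Library totals put the median of all genes at 0.27 and 0.25 in the pairs with the AOM/DSS library labelled knockout. The squamous median between the libraries labelled knockout was 3.0 by epithelial genes, 1.32 with a pseudocount of 5 CPM, 3.14 with a minimum of 200 and 0.00 without one. For the label after AOM/DSS it was 3.12, 1.57 and, without a minimum, 0.25. The squamous share, in the order of libraries used above, was 0.0207%, 0.0311%, 0.0532% and 0.556% with basal members alone and 0.127%, 0.256%, 0.130% and 1.10% with Krt8-ps added, and 1.60% in the last with Krt6a and Krt6b. Additions of Krt8-ps, Krt6a and Krt6b, and other scalings for genes that are not keratins, were chosen after seeing the data. No paired analysis was possible because each group has 1 library, whose replicate number only names it; leaving it out would empty the group. At these depths a keratin with 0 counts is limited to 3 counts in that library.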

Other observations

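Intermediate filament genes other than keratins were listed to set beside the keratins, with 13 of 15 measured. Between the libraries labelled knockout, 2 passed 2-fold upward (14.1% of all genes, about the same share) and 8 downward (15.9% of all genes), against 2 and 5 when scaled to epithelial genes and 1 and 8 with upper-quartile factors. Vim, the filament of mesenchymal cells, stood at 204 and 409.8 CPM, and Lmnb1, a nuclear lamin, was 2.95-fold higher (2.76 to 3.17). Des, the muscle filament, was 8.83-fold lower (8.55 to 9.13), Synm, its partner synemin, 8.13-fold lower, and the neuronal filament Prph 10.8-fold lower (7.42 to 16.3). After AOM/DSS in WT, Gfap of glia was 2.51-fold higher (2.14 to 2.96) and the other 12 stayed within 2-fold; on the epithelial scale Gfap was at a log2 ratio of 0.98 and not called, and Synm, at -1.01, was.

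Members below the count minimum went both ways with the knockout label. After AOM/DSS, Krt4 went from 6 counts in WT to 49 under the label and Krt35 from 0 to 29, while some members had fewer counts under the label. Krt222, a keratin-like gene on chromosome 11, had 32, 19, 47 and 3 counts, and was 22.8-fold lower with the label after AOM/DSS (7.33 to 114). Krt27, an inner root sheath keratin, had 13 and 14 counts in the WT libraries and 1 in each library labelled knockout. Simple keratin counts per epithelial gene count were 0.958, 0.797, 0.986 and 1.21 in the order of libraries used above. The largest member of the epithelial count was Lgals4, with 83151, 78058, 97422 and 45218 counts. Whether the order of the libraries depends on it was not tested.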
